A study of Capra hircus with 3 samples.

Results

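A small set of cells in the goat fetal testis was defined by transcripts of HEPACAM, PCSK1, CLDN1, WFDC2, PAX8 and EPCAM, and 81 of the 13500 barcodes kept in the E105 and E85 libraries met the definition. A barcode was a member if it carried at least 3 unique molecular identifiers (UMIs, 1 per captured transcript) of these 6 genes and at least 2 of the genes. It also had to carry AMH at under 0.05% of its UMIs or at under 5 UMIs, and fewer than 3 UMIs of DDX4 and DAZL together, so that Sertoli cells and germ cells were left out. Barcodes were kept with at least 1000 UMIs and at most 20% mitochondrial UMIs, which left 20825 of 24344 barcodes over all 3 libraries. The set had been proposed as rete or duct epithelium. It is called HEPACAM/PCSK1 cells below because PAX2, LHX1, GATA3, CDH16 and ESR1, listed as markers of mesonephric or efferent ducts, had 0 UMIs in them. These zeros do not decide on the rete part of the proposed name.

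Droplet single-cell RNA libraries had been made from male goat (Capra hircus) testes, 1 library at E105 and 1 at E85 (E for embryonic day), and 1 other library was labelled E125. The testes were untreated, and were dissociated with collagenase IV, hyaluronidase, trypsin and DNase before loading on a Chromium controller. The labels give neither a breed nor the number of fetuses pooled in a library. With 1 library per stage there is no replicate check, no test and no p-value, and every interval is an exact 95% interval that covers counting error only.

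The rete testis is the network of channels that joins the seminiferous cords to the efferent ducts and so to the epididymis. Its cells arise at the border of the gonad and the mesonephros, and in the mouse a PAX8-positive supporting-like lineage contributes to them. PAX8 is a transcription factor of the urogenital ducts, WFDC2 a secreted protein of the WAP family known from the epididymis, CLDN1 a tight junction claudin, HEPACAM a cell adhesion protein, PCSK1 a prohormone convertase and EPCAM an epithelial adhesion molecule.

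The E105 library held 18 HEPACAM/PCSK1 cells among 7124 kept barcodes, or 0.253% (0.150 to 0.399). The E85 library held 63 among 6376, or 0.988% (0.760 to 1.26). The share at E105 lay below that at E85 with intervals that did not overlap. The rule asks for 3 UMIs, and the kept barcodes had a median of 3103 UMIs at E105 and 4905 at E85. With every barcode thinned to 2000 UMIs, 7 of 5525 barcodes (0.127%, 0.0510 to 0.261) met the rule at E105 and 40 of 4989 (0.802%, 0.573 to 1.09) at E85, so the order held at equal depth. In dissociated tissue a lower share of cells in the tissue and a lower recovery of those cells cannot be told apart. The members themselves had like depths, with medians of 4277.5 UMIs at E105 and 4252 at E85, and they summed to 103923 and 348505 UMIs. Their median mitochondrial share was 4.26% at E105 and 6.82% at E85, against 3.48% and 4.03% in all kept barcodes of the same libraries. With a limit of 10% mitochondrial UMIs in place of 20%, 15 barcodes (0.221%) at E105 and 40 (0.654%) at E85 met the rule.

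The genes of the rule chose the cells, so their levels are a description. Levels are given as CPM, the UMIs of a gene over the summed cells scaled to the same total in every set of cells. HEPACAM stood at 346 CPM at E105 and 422 CPM at E85, with 0 to 8 UMIs per cell (median 1.5) and 0 to 11 (median 2). PCSK1 stood at 346 and 557 CPM, and CLDN1 at 289 and 686 CPM. WFDC2 had 144 CPM at E105 and 230 CPM at E85. The remaining 2 genes contributed little. PAX8 had 2 UMIs in 2 of 18 cells at E105 and 20 UMIs in 15 of 63 cells at E85. EPCAM had 2 and 3 UMIs, or 19.2 CPM at E105 and 8.61 CPM at E85, against 7.69 and 9.29 CPM in the rest of the same libraries.

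HEPACAM and PCSK1 were found together in 9 of 18 cells at E105 and in 40 of 63 cells at E85. HEPACAM and CLDN1 were found together in 8 and 44 cells. The sum of the 6 genes had a median of 5 (3 to 17) at E105 and of 8 (3 to 61) at E85. Just inside the threshold, 3 cells at E105 and 9 at E85 had a sum of 3. Just outside it, 37 barcodes at E105 and 36 at E85 had a sum of 2, and 11 and 18 had a higher sum from 1 gene. AMH stood at 77.0 CPM in the members at E105 and 25.8 CPM at E85, against 6758 and 2167 CPM in AMH cells. AMH cells are the 2166 barcodes at E105 and 2569 at E85 with at least 5 AMH UMIs that make up at least 0.05% of their UMIs and with fewer than 3 UMIs of DDX4 and DAZL. They stand for the Sertoli cells.

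**Figure D1:**
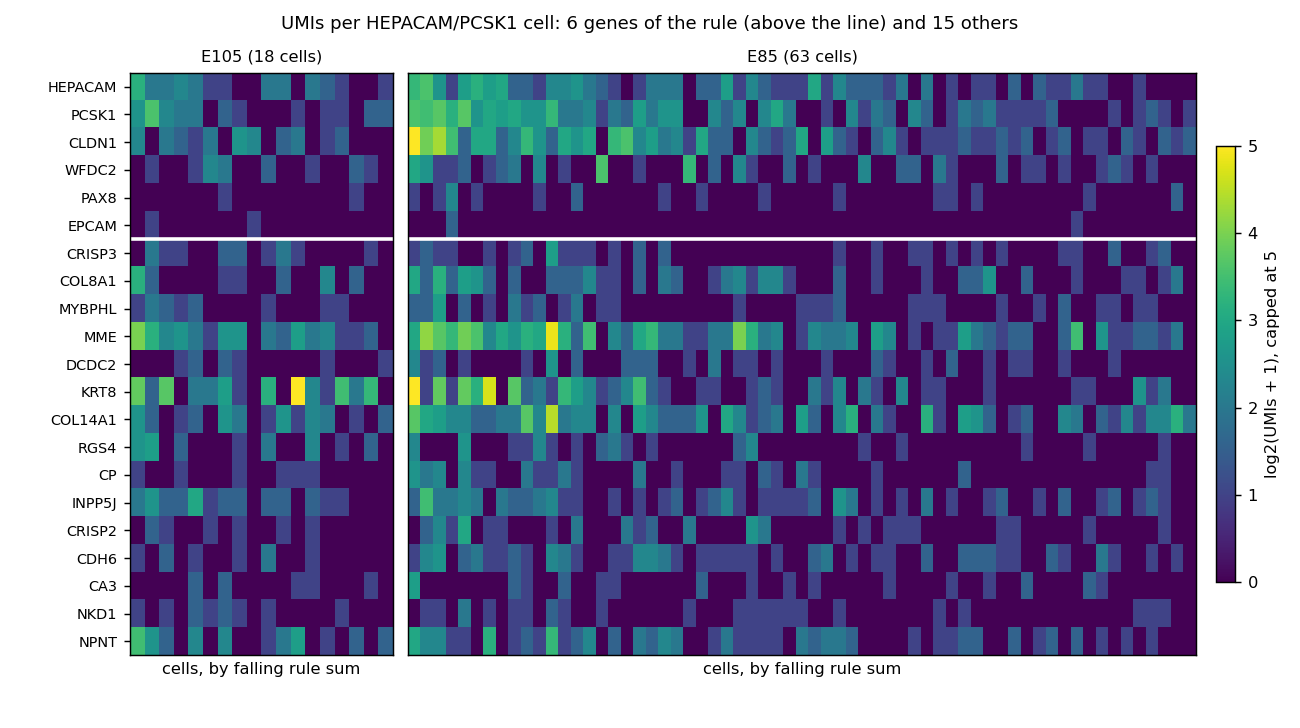
UMIs per cell, as log2(UMIs + 1) in colour, for the 6 genes of the rule (above the white line) and 15 genes outside it (rows), in the 18 cells at E105 (left) and the 63 cells at E85 (right), ordered by the falling sum of the rule genes. MME, KRT8, COL14A1, INPP5J and NPNT recur across both blocks, and EPCAM and PAX8 are mostly at 0.

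The members resembled each other in genes that the rule had not used. When the kept barcodes of both libraries were clustered without the 9 genes of the rule, 80 of the 81 members fell in 1 of 26 clusters, which held 98 barcodes, 26 at E105 and 72 at E85. The 18 other barcodes of that cluster had missed the rule, 13 because the sum was under 3, 4 because only 1 gene was found and 1 because of AMH. The same 80 of 81 figure was obtained with 19 and with 38 clusters. The cluster itself was built from the genes of these cells, so what sets it apart is described and not tested.

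The 1 member outside was an E105 barcode of 8115 UMIs with 4 UMIs of CLDN1 and 1 of EPCAM. It fell in a cluster led by CLEC9A and AIF1, genes of dendritic cells and of macrophages, and it carried 0 UMIs of MME and KRT8. It held 21 of the 22 UMIs of C1QA, a complement gene of macrophages, among the E105 members, and 1183 of the 1823 UMIs of CST3, which encodes cystatin C. The macrophage markers summed to 558 CPM in the E105 members and to 10.4 CPM without that barcode, against 2.87 CPM in the E85 members. Without it, C1QA stood at 10.4 CPM, IFI30 at 52.2 CPM, CENPF at 10.4 CPM and CST3 at 6680.0 CPM in the E105 members, against 212, 202, 48.1 and 17542 CPM with it.

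Many genes were far higher in HEPACAM/PCSK1 cells than in the rest of their library. Of 2889 features measured, 200 (6.92%) were at least 2-fold higher in both libraries and 215 (7.44%) at least 2-fold lower. These cells were picked by their transcripts, so the counts describe the set. A feature scarce in the rest was measured only if members had at least 20 UMIs of it, which bears on these counts and on the list counts below. The 15 named genes, listed by the lower interval bound of the ratio, were CRISP3, COL8A1, MYBPHL, MME, DCDC2, KRT8, COL14A1, RGS4, CP, INPP5J, CRISP2, CDH6, CA3, NKD1 and NPNT.

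MME encodes neprilysin, a peptidase at the cell surface. It stood at 654 CPM (508 to 830) at E105 and 821 CPM (728 to 921) at E85, against 6.39 and 8.66 CPM in the rest, ratios of 102 (77.2 to 134) and 94.7 (80.9 to 111). It was found in 16 of 18 cells at E105 and 54 of 63 cells at E85, with a median of 3 UMIs in each library and up to 15 and 28. After thinning to 2400 UMIs per cell, 72.2% of E105 members and 70.9% of E85 members had a UMI of MME, against 1.05% and 0.510% of AMH cells. Thinning left out 0 and 8 members. The unthinned shares were 88.9% and 85.7% in members and 3.32% and 3.74% in AMH cells, whose median depths were 9884 and 10383 UMIs.

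KRT8, a keratin of simple epithelia, stood at 1203 CPM at E105 and 605 CPM at E85, against 16.1 and 16.3 CPM in the rest. At E105 a single cell held 40.0% of the UMIs, and at E85 a single cell held 27.0%. Without these cells KRT8 stood at 810 and 487 CPM. KRT8 was thus high in both libraries, and unevenly so, with 14 of 18 cells and 39 of 63 cells carrying it.

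The extracellular matrix genes were COL14A1, COL8A1 and NPNT. COL14A1, a fibril-associated collagen, had 337 CPM at E105 and 620 CPM at E85, against 8.41 and 5.58 CPM in the rest. COL8A1, a short-chain collagen, had 192 and 267 CPM, against 1.10 and 0.645 CPM in the rest. NPNT encodes nephronectin, a ligand of integrin alpha 8 in the kidney, and had 385 and 278 CPM against 16.2 and 17.4 CPM. All 3 were at least 16.0-fold higher than in the rest in each library, and COL14A1 was found in 13 of 18 and 50 of 63 cells.

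The cysteine-rich secretory protein genes CRISP3 and CRISP2 were also among the named genes. CRISP3 had 144 CPM at E105 and 106 CPM at E85, against 0.103 and 0.207 CPM in the rest. CRISP2 had 67.4 and 132 CPM against 1.36 and 0.991 CPM. Both were found in a minority of cells at E85, 26 and 23 of 63.

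CDH6, a cadherin of the developing kidney, had 86.6 CPM at E105 and 215 CPM at E85, against 2.13 and 2.24 CPM in the rest. INPP5J, an inositol phosphatase, had 308 and 250 CPM against 10.1 and 9.19 CPM. NKD1, an inhibitor of WNT signalling that is itself a WNT target, had 96.2 and 71.7 CPM against 3.23 and 2.53 CPM. RGS4, a regulator of G protein signalling, had 231 CPM at E105 and 100.4 CPM at E85, against 4.92 and 2.44 CPM in the rest. It was also among the leading genes of an E85 cluster led by MGP and RGS5. The other named genes, MYBPHL, DCDC2, CP (ceruloplasmin) and CA3 (a carbonic anhydrase), had 57.7 to 129 CPM in the members of either library and at most 3.18 CPM in the rest.

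**Figure D2:**
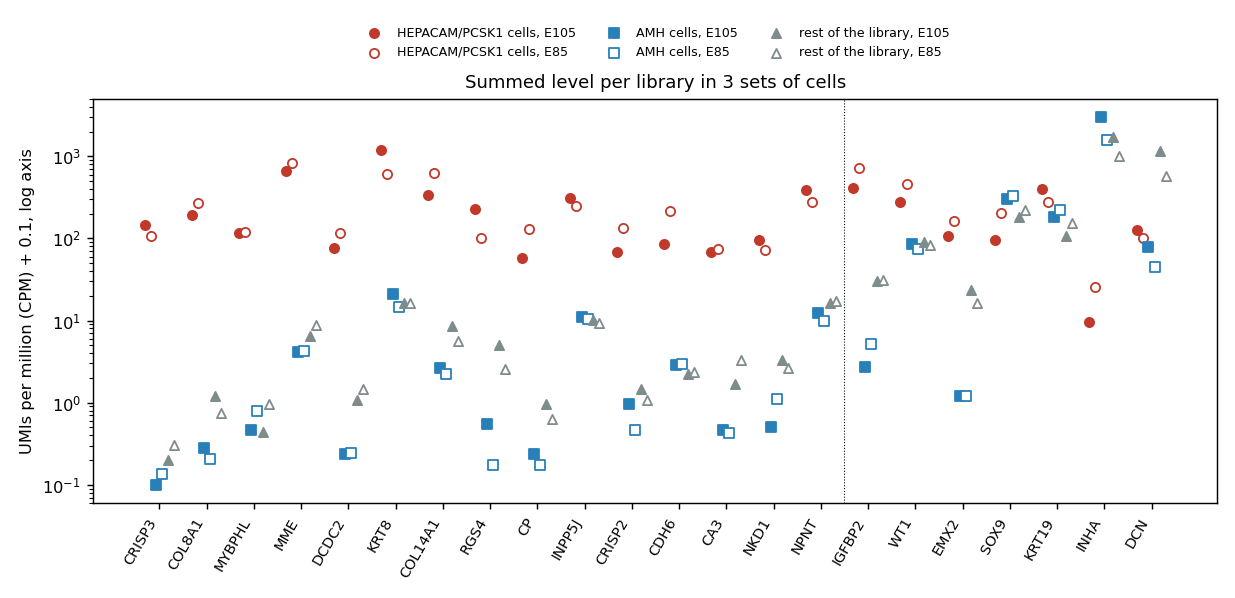
Summed level of each gene in CPM + 0.1 (log axis) in HEPACAM/PCSK1 cells (circles), AMH cells (squares) and the rest of the library (triangles), filled for E105 and open for E85. Left of the dotted line are the 15 named genes, where the circles lie at 57.7 CPM or more. Right of it IGFBP2, WT1 and EMX2 are also higher in HEPACAM/PCSK1 cells than in both other sets, and INHA is lower.

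The 5 named genes that were lower were INHA, PLA2G1B, SPARCL1, CTSW and SHOX2. SHOX2, a homeobox gene, had 0 UMIs in the members of both libraries, against 163 and 96.7 CPM in the rest. CTSW (cathepsin W) had 0 and 3 UMIs, against 404 and 117 CPM in the rest, and PLA2G1B and SPARCL1 had 0 UMIs at E105 and 2 and 3 at E85. SPARCL1, CTSW and SHOX2 were also low in AMH cells, at 19.6, 20.4 and 12.3 CPM at E105 and 9.28, 9.86 and 8.74 CPM at E85. PLA2G1B had 417 and 345 CPM in AMH cells, which the rule had left out, and INHA was high in them too. Low levels of these 5 genes are thus not particular to the members.

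The number of the 15 genes found in a barcode is given by its distance from the threshold. Members with a rule sum of 10 or more carried a median of 9 of the 15, members with 5 to 9 carried 7.5 and members with 3 or 4 carried 6. The 18 barcodes of the same cluster that missed the rule carried 4. Barcodes with a sum of 2, and barcodes with 3 or more UMIs from 1 gene, carried a median of 0. The 61 barcodes that had the marker UMIs but failed only on the germ cell genes carried 3 at a median of 20105 UMIs, and 0 of them fell in the cluster. The 15 genes were chosen for being high in members against all other barcodes, so that choice bears on these medians both inside and outside the rule, and they do not test the threshold.

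**Figure D3:**
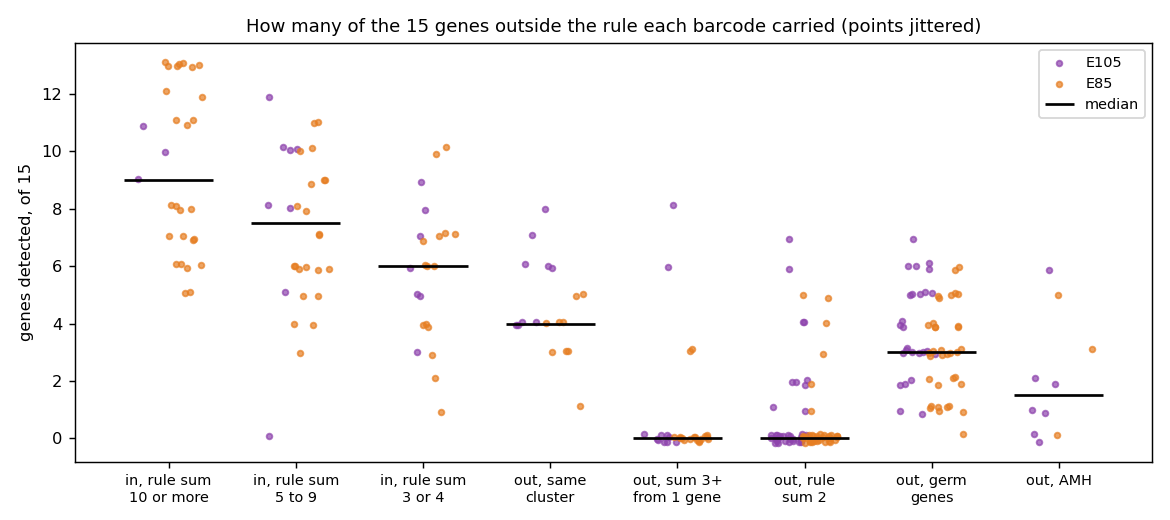
Number of the 15 genes outside the rule with at least 1 UMI (vertical axis) in each barcode, by distance from the threshold (horizontal axis), for E105 and E85, with the median as a line. The medians are 9, 7.5 and 6 inside the rule, 4 for other barcodes of the cluster and 0 for barcodes with a rule sum of 2.

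The label was set beside marker lists. The rule had left out barcodes by AMH and by DDX4 and DAZL, and the rest still held them. Low Sertoli and germ markers in members therefore follow in part from the rule and do not check the label. Of the mesonephric or efferent duct list, PAX2, LHX1, GATA3, CDH16 and ESR1 had 0 UMIs in the members of both libraries. With the limit of a count of 0 set at 3 counts, it allows up to 28.9 CPM at E105 and 8.61 CPM at E85. EMX2, a homeobox gene of the same list needed for the urogenital system in the mouse, had 106 CPM at E105 and 161 CPM at E85, against 23.7 and 16.2 CPM in the rest and 1.10 and 1.12 CPM in AMH cells. General epithelial genes were mixed. CDH1 had 2 UMIs at E105 and 4 at E85, or 19.2 and 11.5 CPM, against 0.0513 and 0.300 CPM in the rest and 0 UMIs in AMH cells. GRHL2 and ESRP1 had 0 UMIs in members. Of 20 matched keratin, adherens and desmosome genes 8 were measured, of which KRT8, CDH6 and DSP were higher in both libraries and 0 lower, beside 6.92% and 7.44% of all features. KRT8 and CDH6 are among the 15 named genes, with at most 16.3 and 2.24 CPM in the rest of either library. Genes this scarce in the rest were measured only because members had at least 20 UMIs of them. The tally could thus hardly find such genes lower, and it does not test an epithelial identity. DSP, which encodes desmoplakin, had 38.5 CPM at E105, with 3 of its 4 UMIs in 1 cell, and 109 CPM at E85, and it had 0 UMIs at E105 when 3 of the 6 genes were required. Of 18 matched tight junction genes 3 were measured, and CLDN19 was higher, beside 6.92% of all features. It had 28.9 and 51.6 CPM, from 3 and 18 UMIs, and 0 UMIs at E105 in members with no AMH UMI. The 22 matched epithelial transcription factors and surface proteins included 13 with 0 UMIs in the members of both libraries. Among the 3 of them that were measured 1 was higher, beside 6.92% of all features. Likewise 11 of the 18 tight junction genes and 3 of the 20 keratin, adherens and desmosome genes were at 0 in both libraries. HEPACAM/PCSK1 cells thus carried some epithelial genes, while other epithelial genes and PAX2, LHX1 and GATA3 were not detected at this depth.

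Genes of the gonadal supporting lineage were split. The rule had left out barcodes rich in AMH, which bears on how low Sertoli genes stood. WT1, a transcription factor of the gonadal ridge and of Sertoli cells, had 279 CPM (187 to 401) at E105 and 462 CPM (393 to 539) at E85, against 85.8 and 74.6 CPM in AMH cells and 91.0 and 84.0 CPM in the rest. SOX9, the Sertoli cell determinant, had 96.2 and 204 CPM, against 304 and 325 CPM in AMH cells. INHA, the inhibin alpha subunit, had 1 UMI at E105 and 9 UMIs at E85, or 9.62 and 25.8 CPM, against 3014.5 and 1560.2 CPM in AMH cells. Of the 12 matched Sertoli markers 9 were measured against the rest. TF (transferrin) and CITED1 were higher, and INHA, DMRT1, FSHR, HSD17B3 and GATM were lower, beside 6.92% higher and 7.44% lower of all features. The medians of the 9 were -1.48 at E105 and -1.42 at E85 on the log2 scale, beside -0.06 and -0.05 over all features. CITED1 rested on 6 UMIs at E105, where its ratio of 2.20 (0.80 to 4.80) included 1 and became 0.52 when 5 UMIs of the 6 genes were required.

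Stroma, germ, Leydig, endothelial, lymphoid and glia markers summed below the rest in both libraries, and mesothelium markers above it. Stroma markers summed to 433 CPM at E105 and 430.4 CPM at E85, against 2669 and 1294 CPM in the rest. Of the 8 measured 6 were lower, beside 7.44% of all features. DCN, a stromal proteoglycan, had 12 of its 13 UMIs at E105 in 1 cell and 35 UMIs in 3 cells at E85. Germ markers summed to 0 and 5.74 CPM, Leydig markers to 0 and 2.87 CPM, and the 5 glia markers were at 0. Endothelial markers summed to 38.5 and 126 CPM against 197 and 165 CPM in the rest, and mural markers to 231 and 221 CPM against 249 and 96.3 CPM. The mesothelium or surface epithelium markers summed to 414 CPM at E105 and 304 CPM at E85, against 111 and 160 CPM in the rest. Most of the sum in members was KRT19, a keratin, with 395 and 275 CPM, while UPK1B had 9.62 and 8.61 CPM. AMH cells had 181 and 223 CPM of these markers, with KRT19 at 180 and 222 CPM, so KRT19 is not particular to the members. The part of these markers in the results was not tested. Across the 2889 features the members' profile correlated most with a cluster that carried AMH in each library, at a Pearson r of 0.777 at E105 and 0.801 at E85. It correlated least with a cluster led by STK31 and TKTL1, at 0.533 and 0.621. Clusters led by MGP and RGS5 and by LYVE1 and PNOC were close behind at E85, at 0.783 and 0.780. Clusters with an r of 0.737 to 0.777 at E105 carried AMH at 5243 to 7605 CPM, and the next, at 0.730, carried 766 CPM. Those with an r of 0.786 to 0.801 at E85 carried 1823 to 2318 CPM. The compared cluster with the most AMH had an r of 0.689 at E105 (9816 CPM, median 2796 UMIs). Its counterpart at E85 had an r of 0.756 (3237 CPM, median 2548.5 UMIs). The highest r thus went to clusters rich in AMH in each library, but likeness to Sertoli cells was not tested. These correlations are across genes, between sums of cells from the same library, and the clusters differ in depth from the members.

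**Figure D4:**
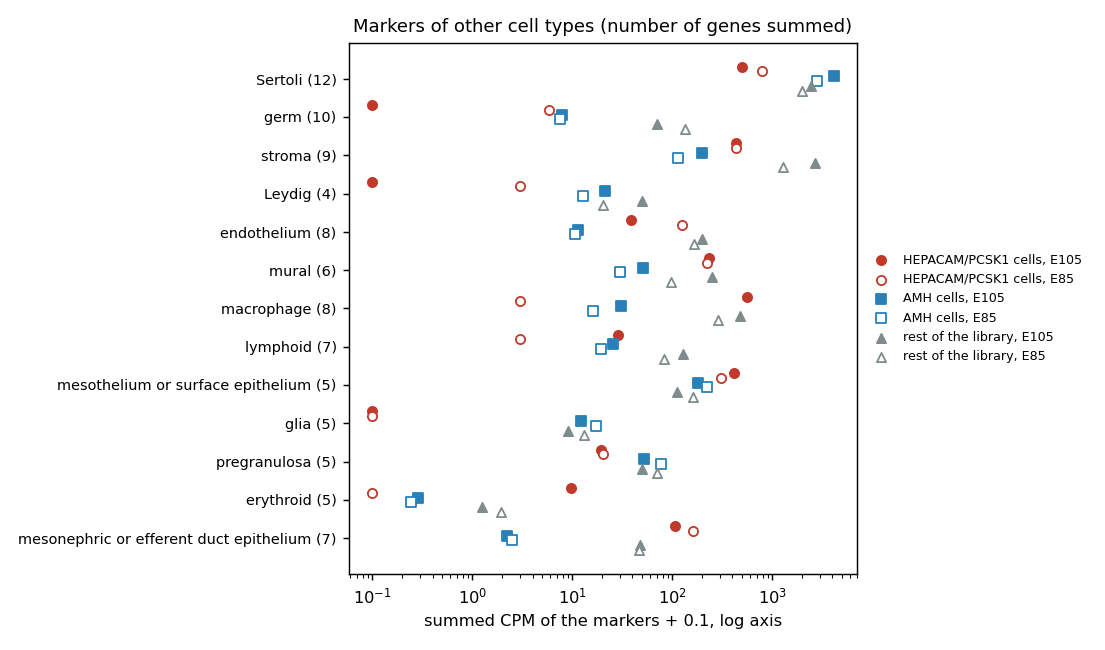
Summed CPM + 0.1 (log axis) of 13 marker lists, with the number of genes summed in brackets, in HEPACAM/PCSK1 cells (circles), AMH cells (squares) and the rest (triangles), filled for E105 and open for E85. Sertoli, germ and stroma markers lie below the rest in both libraries, and the macrophage sum of 558 CPM at E105 drops to 10.4 CPM without 1 barcode. The rule left out barcodes by AMH and by germ cell genes, which bears on the Sertoli and germ sums.

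Against AMH cells alone, 299 of 2696 features (11.1%) were at least 2-fold higher in both libraries and 173 (6.42%) lower. Scaling by the trimmed mean of log ratios moved the log2 ratios by 0.51 at E105 and 0.46 at E85 and gave 194 higher and 295 lower, so the balance of higher and lower depends on the scaling. The 15 higher genes were each at least 24.3-fold higher than in AMH cells in both libraries, far above this shift.

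Growth factor and signalling genes were led by insulin-like growth factor binding proteins. Of 41 matched growth factor genes 10 were measured, and IGFBP2, IGFBP5, FGF12 and ETV5 were higher than in the rest and 0 lower, beside 6.92% and 7.44% of all features. FGF12 and ETV5 rested on 4 and 3 UMIs at E105. IGFBP2 had 414 CPM (299 to 557) at E105 and 717 CPM (631 to 812) at E85, against 30.5 and 31.0 CPM in the rest and 2.65 and 5.07 CPM in AMH cells. Of 36 WNT pathway genes 6 were measured, and NKD1 and SFRP2, a secreted WNT antagonist, were higher, SFRP2 with 135 and 51.6 CPM against 12.5 and 5.44 CPM. Of 33 genes of the BMP, TGF-beta and activin list 6 were measured, of which ID3, a target of BMP signalling, and TGFB2 were higher and INHA and INHBA lower. TGFB2 rested on 5 UMIs at E105. ID3 had 1010.4 and 1684 CPM against 318 and 358 CPM. Of 17 matched NOTCH pathway genes 2 were measured, and DLK1 was lower. The WNT, BMP and NOTCH counts also stand beside 6.92% higher and 7.44% lower of all features, and these short lists were not tested.

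TIMP3, an inhibitor of matrix metalloproteinases, was the 1 of 10 measured protease inhibitor genes that was higher, a share near the 6.92% of all features, with 1636 CPM at E105 and 1979.9 CPM at E85 against 609 and 519 CPM, and it was found in all 18 and all 63 cells. Of 7 measured basement membrane genes LAMC1 and COL4A4 were higher and LAMB1 lower, beside 6.92% and 7.44% of all features. Among 7 measured steroid and retinoid genes 1 was higher and 1 lower, beside 6.92% and 7.44% of all features. ALDH1A2, which makes retinoic acid, had 28.9 and 63.1 CPM against 8.72 and 4.77 CPM, from 3 and 22 UMIs. Of 23 matched prohormone processing and granin genes 4 were measured, and CHGA was lower, beside 7.44% of all features. Of 2 measured cilium genes and 3 measured ion, water and acid-base transport genes 0 were at least 2-fold higher or lower in both libraries, beside 14.4% of all features. HSPB1, a small heat shock protein, was the 1 of 7 measured dissociation stress genes that was higher, beside 6.92% of all features. It had 1742 and 1079 CPM against 536 and 523 CPM.

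Few of the cells carried many transcripts of dividing cells, and at E85 their share was near those of AMH cells and of the rest. Over 14 genes of the G2 and M phases, 1 of 18 cells at E105 and 5 of 63 cells at E85 (7.94%, 2.63 to 17.6) had 10 or more UMIs, and the median was 0. The 1 cell at E105 was the barcode outside the cluster, and 0 of the other 17 (0 to 19.5%) had as many. Of AMH cells, 6.93% at E105 and 6.34% at E85 had 10 or more, which were sequenced more deeply. The shares in the rest were 6.36% and 9.20%. Summed over the 14 genes, members had 375 CPM at E105 and 683 CPM at E85. AMH cells had 576 and 453 CPM, and the rest had 753 and 747 CPM. A single cell held 79.5% of the members' UMIs of these genes at E105 and 39.1% at E85.

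Between the stages, most differences were small against the counting error of 18 and 63 cells. Of 2430 features measured, 138 (5.68%) were at least 2-fold higher at E105 and 254 (10.5%) at least 2-fold lower. The interval of the ratio left 1 for 98 (4.03%) of the higher and 80 (3.29%) of the lower, 178 (7.33%) in all, so most of the lower features had an interval that included 1. The trimmed mean scaling moved the log2 ratios by 0.22 and gave 79 higher and 374 lower.

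Several of the genes higher at E105 were held by single cells. The E105 cell of most UMIs, with 15868, carried 308 of the 426 UMIs of TIMP2 and 20 of the 24 UMIs of ANGPTL5. A cell of 11289 UMIs carried 20 of 23 UMIs of LGALS3, 19 of 29 of CRABP2 and 14 of 20 of CXCL10. The barcode outside the cluster held most C1QA and 16 of 21 UMIs of IFI30. With the cell richest in each gene left out of each library, LGALS3 stood at 32.4 CPM at E105 and 29.2 CPM at E85. CRABP2 then stood at 108 and 25.3 CPM, and TIMP2 at 1340.1 and 408 CPM. All 3 were higher at E105 in the rest of the library as well, with ratios of 2.07 for LGALS3, 3.48 for CRABP2 and 3.84 for TIMP2.

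ITM2B, PCSK1N and JUN were higher at E105 and found in most cells there, and they too were higher in the rest of the library. ITM2B, a membrane protein of the BRICHOS family, was found in 18 of 18 cells at E105 and 37 of 63 at E85, with 1039 CPM against 184 CPM. Its ratio was 5.66 (4.12 to 7.83) in HEPACAM/PCSK1 cells and 5.53 in the rest. PCSK1N, which encodes the PCSK1 inhibitor proSAAS, had 423 CPM at E105 and 60.3 CPM at E85, a ratio of 7.03 (4.09 to 12.4) beside 4.69 in the rest. It was found in 10 of 18 cells at E105, where 1 cell held 38.6% of its UMIs. With the cell richest in PCSK1N left out of each library, it stood at 307 and 52.6 CPM. JUN, an immediate early transcription factor, had 674 CPM, or 564 CPM without the barcode outside the cluster, against 112 CPM, a ratio of 6.02 (4.01 to 9.15) beside 3.56 in the rest.

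Among the genes lower at E105, WFIKKN2, which encodes a binding protein of myostatin and GDF11, had 2 UMIs in 2 of 18 cells at E105 and 45 UMIs in 26 of 63 cells at E85, or 19.2 CPM against 129 CPM. Its ratio was 0.15 (0.02 to 0.57), beside 1.37 in the rest. AGA had 28.9 CPM at E105 and 138 CPM at E85, and LTF (lactoferrin) 48.1 and 181 CPM, with ratios in the rest of 0.61 and 0.49. P4HA2, a collagen prolyl hydroxylase, had 289 and 623 CPM, a ratio of 0.46 (0.30 to 0.68) beside 0.70 in the rest. DLG5 had 1 UMI at E105 and 31 at E85. TARDBP, IFNAR1 and PHF13 had 0 UMIs at E105 and 23, 22 and 20 UMIs at E85. CKAP2 and CENPF, genes of dividing cells, were lower too, and at E85 1 cell held 26 of the 60 UMIs of CKAP2 and 46 of the 96 of CENPF.

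Of the 15 named genes, CDH6 was at least 2-fold lower and RGS4 at least 2-fold higher with an interval that left 1. CDH6 had a ratio of 0.40 (0.18 to 0.81) beside 0.95 in the rest. RGS4 had a ratio of 2.30 (1.31 to 3.98) beside 2.02 in the rest. COL14A1 had a ratio of 0.54 (0.37 to 0.78) beside 1.51 in the rest, and KRT8 one of 1.99 (1.58 to 2.49) beside 0.99. FGFR2, a receptor of fibroblast growth factors, had 3 UMIs at E105 and 41 at E85, or 28.9 and 118 CPM, and KDR, a receptor of VEGF, had 2 and 37 UMIs, or 19.2 and 106 CPM. MME had a ratio of 0.80 (0.60 to 1.04), with an interval that included 1.

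**Figure D5:**
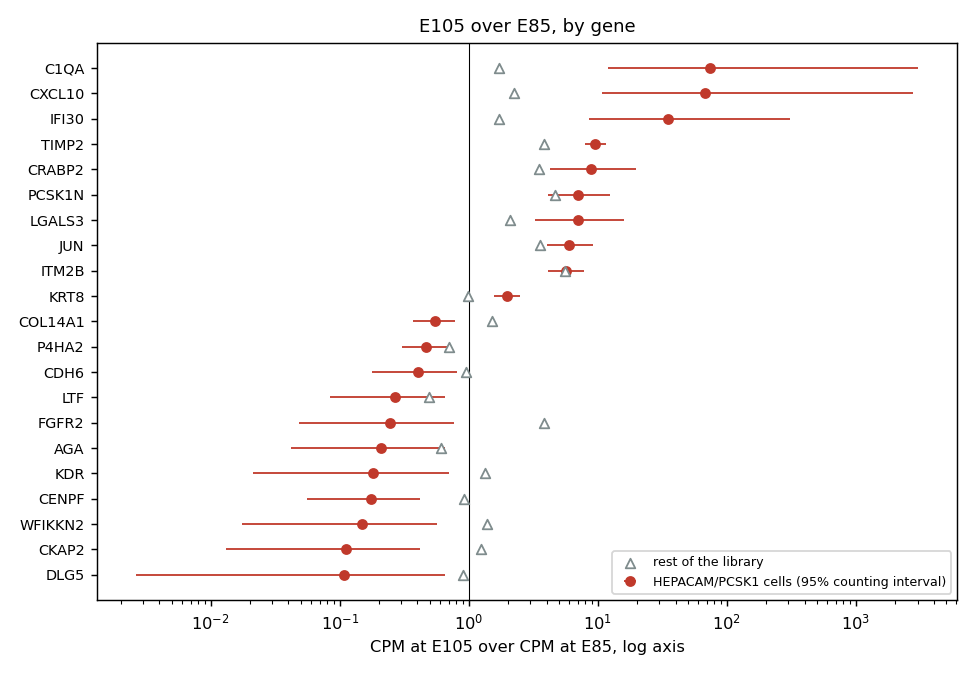
Ratio of CPM at E105 over CPM at E85 (log axis) for genes named by the stage rule and for KRT8, COL14A1, CDH6, FGFR2 and KDR, in HEPACAM/PCSK1 cells (circles, 95% counting interval) and in the rest of the library (triangles). Genes with 0 UMIs at either stage are not drawn. ITM2B has nearly the same ratio in both sets, 5.66 and 5.53, while WFIKKN2 has 0.15 and 1.37.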

How the data were processed

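The deposited files hold UMI counts per feature and barcode, made by the authors with Cell Ranger, version 6.0.0 per the file headers and 3.1 per the submitters' processing notes. Build and annotation: not given in the sources used here. Of 27271 features 16616 had a symbol, and 522 of 597 listed genes matched. The libraries held 40741902 UMIs (E105), 45339231 (E85) and 49692252 (E125). E105 and E85 shared 14 barcodes, 0 of them members. Deposited counts were summed per library and set of cells and given as CPM. Exact intervals were Poisson (levels), Clopper-Pearson (shares) and conditional binomial (ratios). Where nothing was counted, 3 counts set the upper limit. Features entered with at least 20 UMIs observed in members, or at least 20 expected from the comparison cells, summed over both libraries, and for stages with at least 20 over both libraries. Calls need a 2-fold ratio. Barcodes were clustered in scanpy 1.11.5 (counts scaled to 10000, 3000 variable genes, 30 components, 15 neighbours, Leiden resolutions 0.5, 1 and 2). Doublets were kept: Scrublet at an expected 6% called 158 barcodes at E105 (2.22%), 0 of them members, and 194 at E85 (3.04%), 1 of them a member. Thinning used 2400 UMIs per cell, near percentile 10 of the members.

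Members and gene lists were chosen with earlier results of these data known. Named genes had at least 50 CPM: the 15 with the highest lower bound over the rest, 5 with the lowest upper bound, and 10 per direction between stages by the bound nearest 1, leaving out genes with over 10 times the level in the rest. Members of the lists past 2-fold were added. A result of the duct list is not reported here. KRT8 in the stage comparison, COL14A1, CDH6, RGS4, FGFR2, KDR, CST3, CDH1, GRHL2, ESRP1, SOX9 and the single cells were named after their values were seen. The ratio steps were tested on simulated data. Because each stage is 1 library, no p-value was computed. Alternatives are given under the closing section.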

Additional observations from a re-analysis of the deposited data

Results flagged for a closer look

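The same rule applied to the library labelled E125, which enters no comparison above, selected 50 of 7325 kept barcodes (0.683%, 0.507 to 0.899), and it is given here because it is a signal in data the comparisons do not use. These barcodes had a median of 16217.5 UMIs, against 3317 in all kept barcodes of that library. HEPACAM had 4 UMIs in 3 of the 50, or 3.01 CPM, and PCSK1 had 115 CPM. COL14A1 had 14.3 CPM against 86.6 CPM in the rest of that library, and MME 144 against 106 CPM. Other genes were higher there than in the rest of that library, with KRT8 at 289.7 against 42.1 CPM, EMX2 at 162 against 45.5 CPM, NKD1 at 144 against 54.3 CPM, INPP5J at 39.1 against 17.9 CPM and CDH6 at 11.3 against 3.76 CPM. ZP3 and FIGLA, genes of oocytes, had 24.8 and 5.27 CPM in these barcodes and 2168 and 814 CPM in the rest of the library labelled E125. The difference from the other libraries was not tested.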

How the results depend on the processing

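Of 192 counts, shares and sums of the main comparisons recomputed under other settings, 161 stayed within their interval or within 1.5 times and 31 moved. A reversal was not defined for these values. Of 2287 recomputed ratios of single genes, 2088 stayed within their interval, 191 moved and 8 reversed. With 5 UMIs of the 6 genes there were 11 members at E105 and the share at E85 was 0.753%, and with 3 genes 9 (0.126%) at E105. A limit of 10% mitochondrial UMIs left 40 (0.654%) at E85, Sertoli and stroma sums of 624 and 520 CPM there, and 157 features lower at E105. Thinning to 2000 UMIs gave 7 (0.127%) at E105 and 40 at E85. Stroma sums at E105 were 191 CPM with 5 UMIs and 188 CPM with 3 genes, and 264 CPM at E85 without the top 6% of doublet scores. Macrophage sums at E105 were 790 CPM with 5 UMIs, 734 CPM with no AMH, 0 with 3 genes, 10.4 CPM without the top doublet scores or without the barcode outside the cluster, and 7.59 CPM over the cluster. TMM scaling gave 194 higher and 295 lower against AMH cells and 79 higher between stages. At 50 UMIs per feature, 103 were higher and 71 lower than the rest, 123 and 78 than AMH cells, and 32 and 45 between stages. MME at E85 was found in 83.0% of members thinned to the 25th percentile. Ratios of genes with few UMIs reversed at E105: CITED1 to 0.52 with 5 UMIs, DSP to 0 and C3 to 0.51 with 3 genes, CLDN19 to 0 with no AMH, and C3 to 0.94, 0.95 and 0.93 without the top doublet scores, as a mean over cells and without the barcode outside the cluster. The stage ratio of C1QA became 0 with 3 genes. The settings that use the cluster or leave out single barcodes were chosen after seeing the data, and causes were not tested. No paired analysis was possible because each stage is 1 library. Depth limits genes under about 28.9 CPM at E105.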
